A study of Mus musculus with 2 samples.

Results

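Interferon-stimulated genes were followed as a group of 43 genes through every comparison of cardiac interstitial cells that the deposited tables hold. The members were chosen by name, as genes that cells are known to induce when they sense interferon, and all 43 are among the 15059 genes of the fibroblast subcluster tables, out of 15181 distinct genes over all 22 tables. Each member was looked up by its symbol in 18 tables of cell clusters and 4 tables of fibroblast subclusters. The genes map to 16 chromosomes of the GRCm39 mouse assembly, with 6 members each on chromosomes 11 and 16 and 5 on chromosome 5.

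The data come from 2 droplet single-cell RNA libraries of viable, sorted interstitial cells of the mouse ventricle, 1 per genotype, prepared with the 3′ chemistry of the 10x Chromium system. The control library came from PostnMCM hearts, in which a tamoxifen-inducible Cre is expressed from the Postn locus and is therefore active in the fibroblasts that switch Postn on after injury. The other, called the Yap/Wwtr1 library after its label of depletion for these genes, came from Yapfl/fl;Wwtr1fl/+;PostnMCM hearts, in which both copies of Yap1 but a single copy of Wwtr1 (the gene of TAZ) can be excised by Cre. Both groups carried the R26-eGFP transgene, underwent ligation of the left anterior descending artery to cause myocardial infarction (MI), ate chow with 0.4 g/kg tamoxifen from then on, and were collected 6 days after MI according to the labels, while the study's text names a different day. How many adult hearts were pooled in each library is not given in the sources used here. The comparison asks which transcripts differ in fibroblasts, and in the cells around them, when Yap1 and Wwtr1 are targeted in myofibroblasts.

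Interferons are cytokines, and those of type I are released when a cell detects foreign or misplaced nucleic acid. Type I interferons signal through the receptor Ifnar1/Ifnar2 and the kinases Jak1 and Tyk2 to a complex that includes Stat2 and Irf9 and binds the interferon-stimulated response element (ISRE) before its target genes, whereas interferon gamma acts through Ifngr1/Ifngr2 and the gamma-activated site (GAS). The induced genes encode sensors and regulators that amplify the response, RNA-binding and nucleotide-modifying antiviral proteins, the ubiquitin-like modifier ISG15, guanylate-binding GTPases and the inducible subunits of the immunoproteasome. In the infarcted heart this response is known from macrophages that take up debris of dying cells.

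The letters of the ISRE were looked for in the members' promoters. Promoter sequences from RefSeq (GRCm38.p6), 250 bases before to 50 bases after each start site, were found for 31 of the 43 members. No entry was matched for Mx1, Mx2, Ly6e, Usp18, Rtp4, Ifi27l2a, Dhx58, Oas2, Iigp1, Zbp1, Parp9 and Parp14. The letters GAAANNGAAA, which form the core of the ISRE, or TTTCNNTTTC on the other strand occurred in 16 of the 31 members (51.6%) and in 3.44% of all 32851 promoters of this length. Counted by gene, as for the members, a match in any promoter was found for 3.99% of 27025 genes. The letters TTCNNNGAA of the GAS core, which read the same on both strands, occurred in 7 of the 31 members (22.6%) and in 8.3% of all promoters. The sequences below are the parts upstream of the start and outside every exon of the GENCODE annotation, located on GRCm39 by exact match, and written 5′ to 3′ on the gene's own strand with ISRE core matches in capitals. Isg15, Ifit3, Trim30a and Rsad2 are shown as members with a match, and Irf7 as a member without one that stood high in the fibroblast comparison. They were picked after the values were seen.
Isg15 (chr4:156285304-156285475, minus strand): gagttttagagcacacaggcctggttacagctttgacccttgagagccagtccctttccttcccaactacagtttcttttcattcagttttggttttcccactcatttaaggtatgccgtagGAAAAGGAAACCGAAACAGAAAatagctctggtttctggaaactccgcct
Ifit3 (chr19:34560729-34560898, plus strand): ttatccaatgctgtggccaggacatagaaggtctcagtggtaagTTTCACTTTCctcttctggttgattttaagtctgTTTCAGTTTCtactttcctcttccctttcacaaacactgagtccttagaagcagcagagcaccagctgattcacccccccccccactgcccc
Trim30a (chr7:104114408-104114600, minus strand): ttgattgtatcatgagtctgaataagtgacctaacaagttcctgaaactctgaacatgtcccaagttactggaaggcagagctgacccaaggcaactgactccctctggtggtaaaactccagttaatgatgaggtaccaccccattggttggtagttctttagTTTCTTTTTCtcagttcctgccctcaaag
Rsad2 (chr12:26506452-26506651, minus strand): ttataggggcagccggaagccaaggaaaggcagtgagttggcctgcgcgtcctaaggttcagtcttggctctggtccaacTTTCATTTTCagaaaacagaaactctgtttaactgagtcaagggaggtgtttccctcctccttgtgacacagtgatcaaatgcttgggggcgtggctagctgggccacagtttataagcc
Irf7 (chr7:140846399-140846537, minus strand): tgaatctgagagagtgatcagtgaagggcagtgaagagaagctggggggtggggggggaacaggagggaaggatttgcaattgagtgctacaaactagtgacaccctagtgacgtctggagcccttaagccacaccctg
Each printed stretch ends where the first GENCODE exon begins, and for Isg15, Ifit3, Trim30a and Irf7 this lies upstream of the RefSeq start on which the search was centred. Distances here run from the first base of a match to the end of the printed stretch. Isg15 has 3 overlapping matches, starting 50, 44 and 38 bases before that end. Ifit3 has 2 separate matches, starting 126 and 92 bases before it, while Trim30a has 1 at 29 bases and Rsad2 has 1 at 120 bases. The 139 bases shown for Irf7 hold none of these letters, which says only that they are not in this window. A match is a description of the letters and does not show that a factor binds there.

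The tables give, for each gene, the percent of cells with a count in either library and an average log2 fold change of the Yap/Wwtr1 library over the control library, as the authors computed it from mean corrected counts with a pseudocount of 1, which shrinks the values of rarely counted genes. A positive value is higher in the Yap/Wwtr1 library. A cluster table lists a gene only if its fold change is at least 0.25 in size on the log2 scale and if at least 25% of cells in one of the libraries had a count, so a gene that is not listed has no value there. "Listed higher" and "listed lower" are used in that sense. With 1 library per group there is no replicate, no test was made, and every value describes these 2 libraries. The tables state neither the cells nor the counts behind a value, so no interval is given. The smallest share above 0 shows how coarse a table is: in cluster 5 it was 0.5% in the Yap/Wwtr1 library and 0.7% in the control library, but it was 10% in the Yap/Wwtr1 library of subcluster 4 and 9.1% in the control library of clusters 10 and 18 and in the Yap/Wwtr1 library of cluster 17. Shares in those tables are therefore coarse.

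The labels could be checked only in part. Yap1 stood at log2 fold changes of 0.07, 0.31, 0.04 and 0.26 in fibroblast subclusters 0, 3, 4 and 5 of the authors' deposited tables, and Wwtr1 at 0.15, -0.30, -0.21 and -0.16. Yap1 was thus not lower in any of the 4 subclusters, although the label names depletion. A transcript that has lost an exon can still be counted at its 3′ end, but whether this applies here was not tested. The direction of every comparison is that of the labels. No cluster table lists Yap1, Wwtr1 or Postn. In subclusters 0, 3, 4 and 5, Postn was counted in 28.1%, 13%, 20% and 100% of cells of the Yap/Wwtr1 library. The shares of control cells were 25.5%, 40%, 10% and 87%. Most fibroblasts of subclusters 0, 3 and 4 thus had no Postn count in either library. Whether Cre had been active in them was not tested. Col1a1 and Dcn, which mark fibroblasts, were counted in 100% of cells of both libraries in all 4 subclusters. The neutrophil genes S100a8 and S100a9 were also counted in fibroblasts and differed between the libraries: in cluster 5, 32.6% and 49.7% of control cells but 5.9% and 9.1% of cells of the Yap/Wwtr1 library had a count, and S100a9 was listed lower in 12 of 18 clusters. Other abundant markers were lower outside their own cell type too, such as the hemoglobin gene Hbb-bs, which was counted in 38.6%, 43.3%, 45% and 30.4% of control fibroblasts of subclusters 0, 3, 4 and 5 but in 3.1%, 4.3%, 0% and 0% of those of the Yap/Wwtr1 library. The lysozyme gene Lyz2, abundant in macrophages, was listed lower in 7 clusters outside the macrophages and monocytes and higher in 1, but also lower in all 5 macrophage and monocyte clusters. The collagen gene Col3a1 was listed lower in 9 clusters and higher in cluster 5, with 41.5% of control macrophages of cluster 3 against 26% holding a Col3a1 count. The part of such background in the members' values was not tested.

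Over the 18 cluster tables the members were listed 130 times, 111 times higher and 19 times lower. Thus 85.4% of the members' listings were higher, beside 47.7% of the 15431 listings of all genes. Of the 43 members, 35 were listed in at least 1 cluster. Of these, 20 were listed only higher, 12 in both directions and 3 only lower. The 3 were Dhx58, Mx1 and Igtp, each from 1 cluster. Ifih1, Ifit2, Ifit3b, Oasl1, Usp18, Herc6, Mx2 and Cmpk2 were listed in none. The share of cells with a count had the same direction as the fold change in 107 of the 111 higher listings and in all 19 lower ones.

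**Figure D1:**
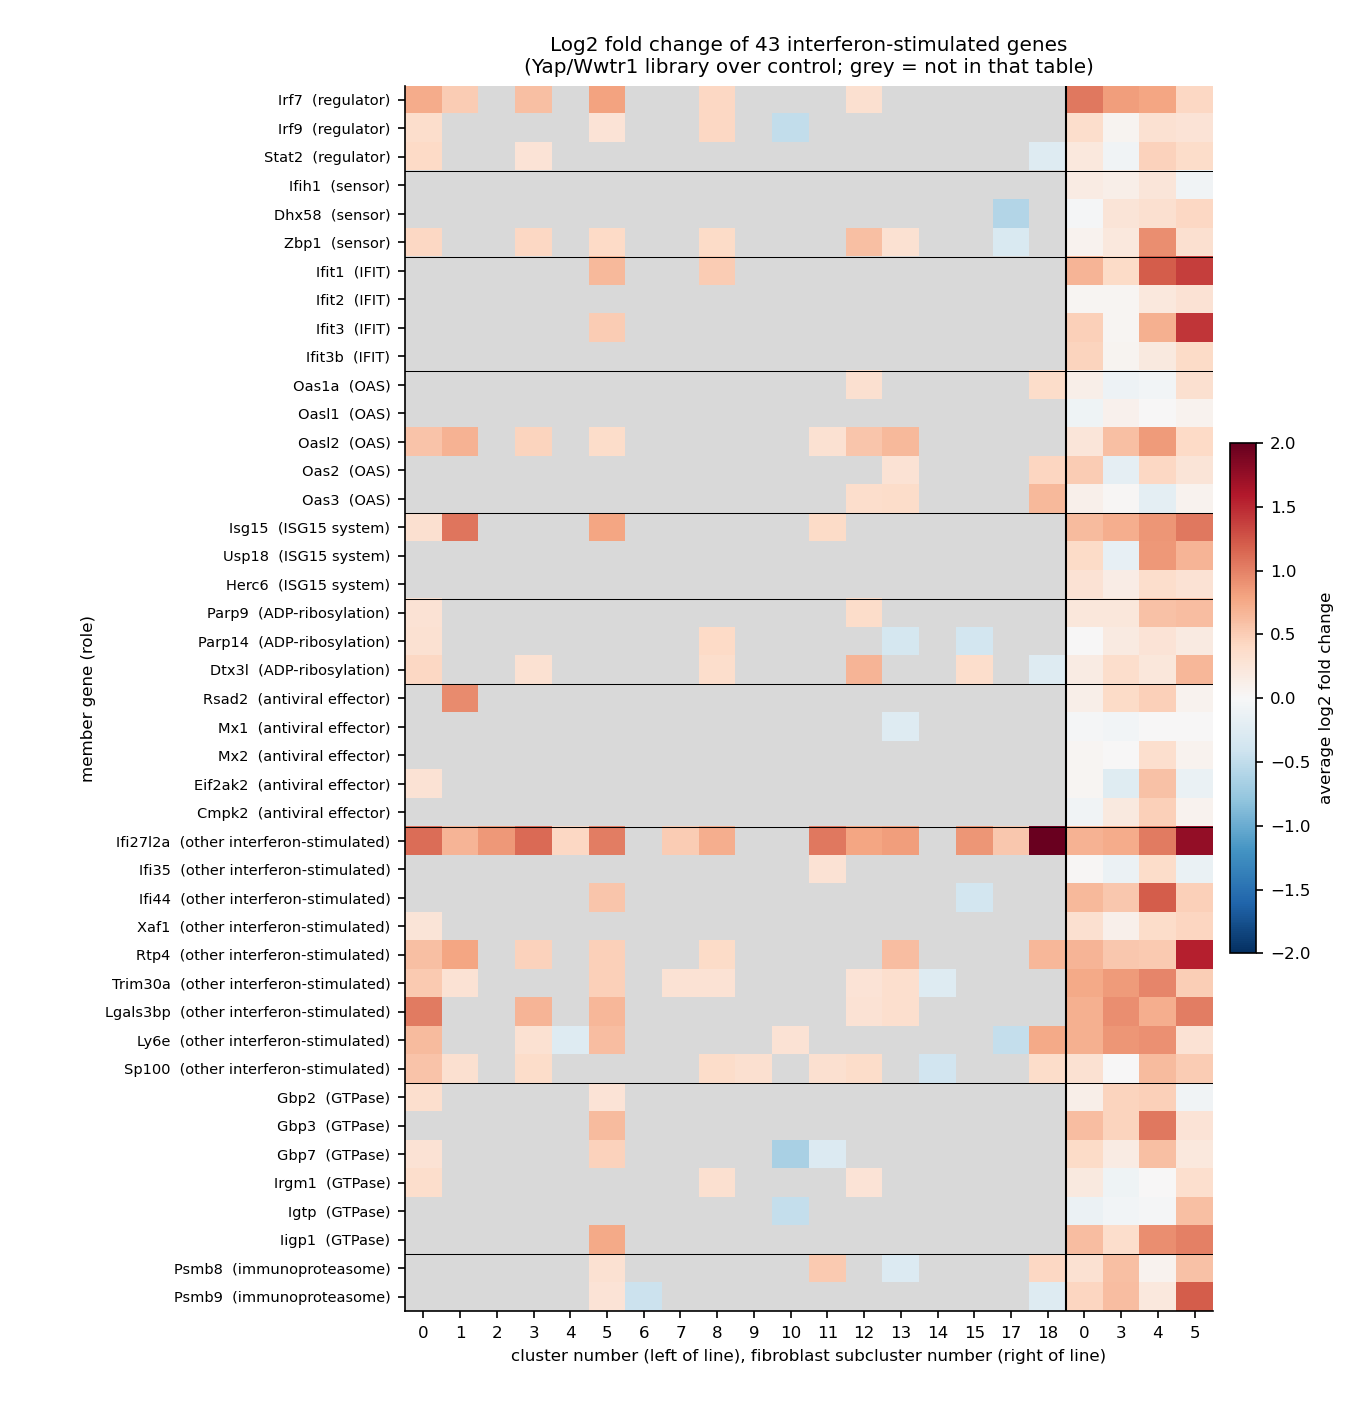
Average log2 fold change (colour scale, Yap/Wwtr1 library over control) of the 43 members (vertical axis, grouped by role) in 18 clusters and 4 fibroblast subclusters (horizontal axis), with grey where a table does not list the gene. Ifi27l2a fills the most clusters (14), and clusters 0 and 5 hold the most members (20 and 19).

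Fibroblasts include the cells in which Cre is active. Cluster 5, the fibroblast cluster, listed 19 members higher and 0 lower, where 43.3% of its 605 listed genes were higher. These 19 are 44.2% of the 43 members, whereas the genes listed higher in cluster 5 are 1.56% of the 16846 genes of the clustered data. The other 24 members were not listed. The clustered data include genes counted in too few cells to be listed at all, and detection was not matched between the members and these genes. According to the study's text, some fibroblast subclusters came mainly from one library and some from the other. Cluster 5 thus sets different mixtures of fibroblasts side by side, and the part of this in the members' values was not tested.

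Among the regulators, Irf7, the transcription factor that amplifies interferon output, was counted in 70.1% of fibroblasts of the Yap/Wwtr1 library and in 29.2% of control fibroblasts, with a log2 fold change of 0.80 in the authors' deposited table. It had the widest gap in shares of the 19. Irf9, the DNA-binding subunit of the complex with Stat2, was counted in 40.1% and 23.2% of cells, with a log2 fold change of 0.28. Zbp1, a sensor of nucleic acid in the Z conformation, was at 52.4% and 32.9% (0.41). Stat2 was not listed, and neither were the RNA sensors Ifih1 and Dhx58.

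The RNA-binding IFIT proteins recognise foreign 5′ ends. Ifit1 was counted in 48.7% of fibroblasts of the Yap/Wwtr1 library against 20.5% of control fibroblasts (log2 fold change 0.65), and Ifit3 in 32.6% against 12.1% (0.51). Reads of Ifit3 and its near-identical copy Ifit3b may have been divided by the counting, so the split between them is uncertain. Of the OAS family, whose active members make oligoadenylates that switch on RNase L, only Oasl2 was listed in cluster 5, at 62.6% against 46.6% of cells (0.36). Isg15, the ubiquitin-like modifier itself, was counted in 77% against 49.7% of cells (0.79), while Usp18, which removes it, and Herc6, which attaches it, were not listed. None of the 3 ADP-ribosylation genes (Parp9, Parp14, Dtx3l) and none of the 5 antiviral effectors (Rsad2, Mx1, Mx2, Eif2ak2, Cmpk2) was listed in cluster 5.

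The highest log2 fold change of a member in fibroblasts was that of Ifi27l2a, which encodes a small hydrophobic interferon-induced protein. It was counted in 90.4% of cells of the Yap/Wwtr1 library and 77.5% of control cells, with a log2 fold change of 1.02 that ranked 13 of the 605 listed genes. Lgals3bp, a secreted glycoprotein that binds galectins, was at 88.2% and 63.4% (0.67), and Ly6e, a lipid-anchored surface protein, at 96.3% and 89.6% (0.62). These 3 were thus already present in most control fibroblasts. Other members were sparse in the control library. Trim30a, a TRIM-family regulator of innate signalling, was at 40.6% and 12.4% of cells (0.48). Ifi44 was at 44.9% and 17.8% (0.55), and Rtp4, a chaperone of membrane receptors, at 52.9% and 24.5% (0.48).

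Among the GTPases, which act on compartments that hold intracellular microbes, 4 of 6 were listed in cluster 5. Iigp1 was counted in 52.4% of cells of the Yap/Wwtr1 library and 25.2% of control cells (log2 fold change 0.76), and Gbp3 in 52.4% and 19.8% (0.63). Gbp7 was at 55.1% and 27.9% (0.46), and Gbp2 at 59.4% and 49% (0.28). Irgm1 and Igtp were not listed. Both immunoproteasome subunits, which replace constitutive subunits when peptides are cut for MHC class I, were at the low end of the 19, with Psmb8 at 73.3% and 59.4% (0.30) and Psmb9 at 34.2% and 19.8% (0.27). Of cell type markers of other lineages in this cluster, 2 of 6 neutrophil markers (S100a8 and S100a9) were listed lower, and none of the 8 macrophage, 5 T cell or 4 B cell markers was listed. Of the 7 fibroblast markers, Pdgfra (1.12), Lum (0.86), Dcn (0.51) and Col3a1 (0.33) were listed higher. Their part in the members' values was not tested.

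**Figure D2:**
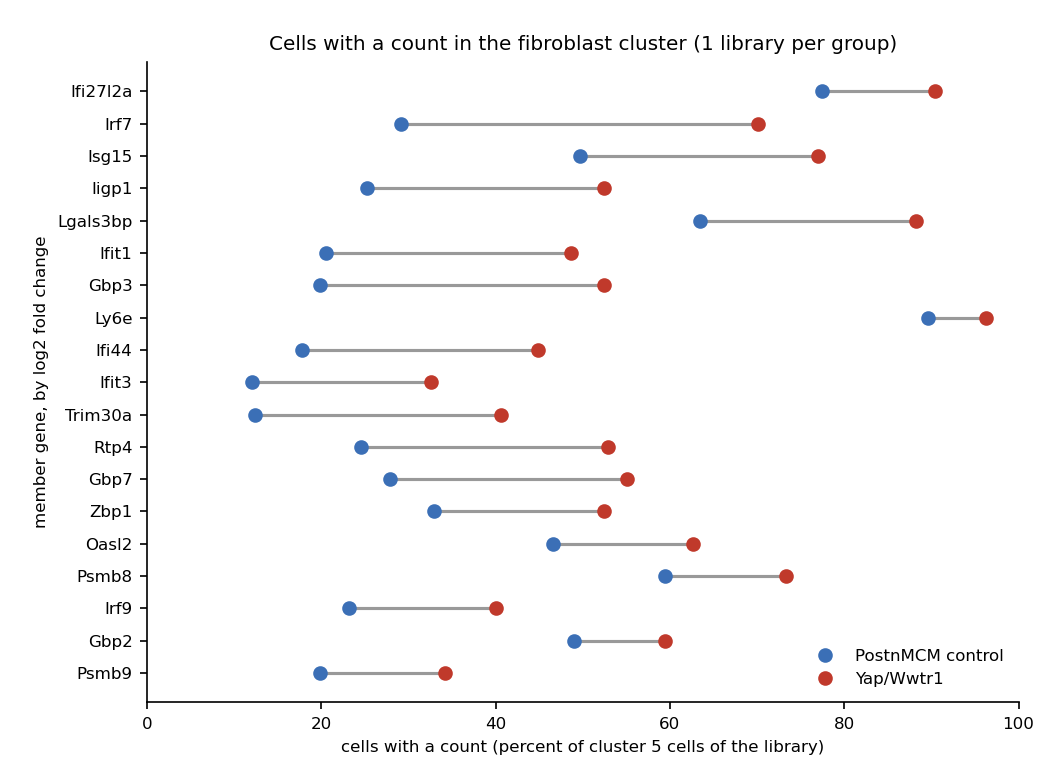
Percent of cluster 5 cells with a count (horizontal axis) in the PostnMCM control library (blue) and the Yap/Wwtr1 library (red) for the 19 listed members (vertical axis, ordered by log2 fold change), with 1 library per point and no error. The red point lies to the right of the blue one for each of the 19, and the gap runs widest for Irf7 (29.2% to 70.1%).

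The fibroblast subclusters come from a separate normalization of the fibroblasts alone, and their tables hold every gene without limits, so all 43 members have a value in each. The median log2 fold change of the 43 members was 0.29, 0.17, 0.47 and 0.37 in subclusters 0, 3, 4 and 5, beside medians of -0.0026, 0.00, 0.00 and 0.00 over all 15059 genes. Values above 0 were held by 38, 33, 37 and 38 of the 43 members, and 27 members were above 0 in all 4 subclusters. The share of cells with a count was higher in the Yap/Wwtr1 library for 37, 28, 32 and 40 members. Among all genes that reached 25% of cells in a library, it was higher for 50.9%, 43.4%, 50.3% and 50.4%.

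With the limits of the cluster tables applied (25% of cells in a library and 0.25 in size), no member was lower in any subcluster, although by the log2 ratio of shares 8 values were. In subcluster 0, 22 members were higher and 0 lower, where 12.5% of the 8490 genes in enough cells were higher and 9.87% lower. In subcluster 3, 18 members were higher and 0 lower, where 13.8% of genes were higher and 15.1% lower. In subcluster 4, 28 members were higher and 0 lower, beside 25.2% and 19.5% of genes. In subcluster 5, 28 were higher and 0 lower, beside 20.3% and 23.5%. The limit on cells alone was passed by 37, 36, 36 and 34 members in these subclusters, some only through the library in which they were higher, so the members that passed are not a fair base for a percent. Subcluster 4 thus had the highest share of all genes called higher as well as the highest median of the members.

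**Figure D3:**
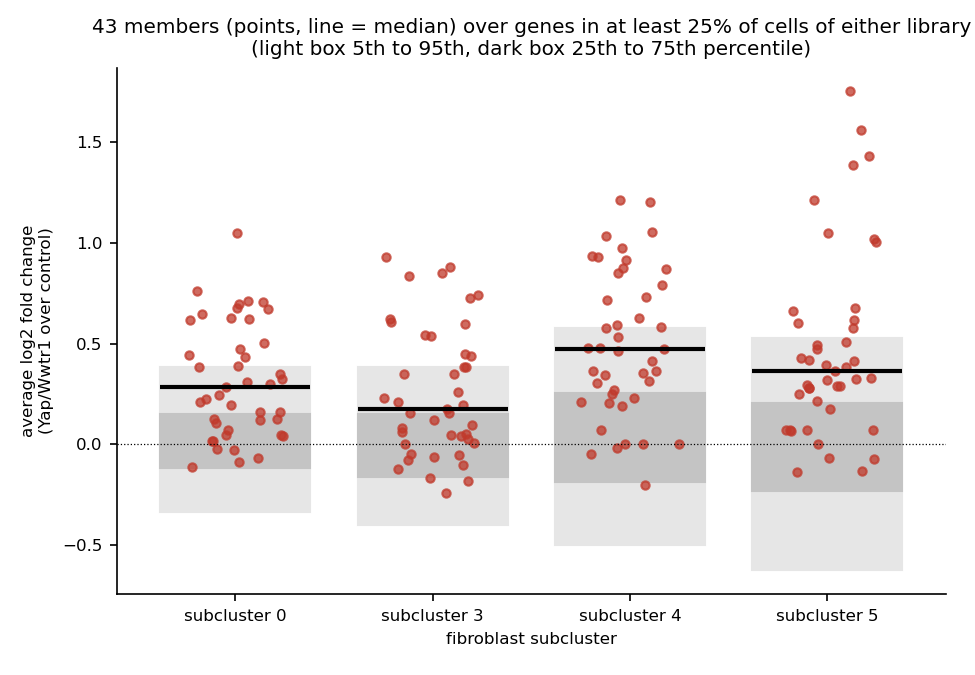
Average log2 fold change (vertical axis, Yap/Wwtr1 library over control) of the 43 members (red points, black line at their median) in fibroblast subclusters 0, 3, 4 and 5 (horizontal axis), over boxes that span the 5th to 95th (light) and 25th to 75th (dark) percentiles of all genes that reached 25% of cells in a library. The medians of the members lie at 0.29, 0.17, 0.47 and 0.37, and single members reach 1.75 (Ifi27l2a in subcluster 5).

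The limits were passed in all 4 subclusters by 10 members, all of them higher: Irf7, Ifit1, Isg15, Ifi27l2a, Rtp4, Trim30a, Lgals3bp, Ly6e, Gbp3 and Iigp1. These 10 are also on the list of cluster 5, from which the subclusters were made. Irf7 was at 1.05, 0.84, 0.79 and 0.42 in subclusters 0, 3, 4 and 5, and 96.9%, 78.3%, 50% and 42.9% of cells of the Yap/Wwtr1 library had a count against 68.3%, 46.7%, 35% and 17.4% of control cells. Isg15 ran in the opposite order, at 0.63, 0.73, 0.88 and 1.05, with shares of 87.5%, 87%, 80% and 81% against 80%, 70%, 57.5% and 56.5%. Differences between subclusters were not tested. Trim30a was at 0.76, 0.85, 0.97 and 0.49, and its shares were 75%, 52.2%, 60% and 33.3% against 41.4%, 13.3%, 25% and 17.4%. For Irf7, Isg15 and Trim30a the share was therefore higher in the Yap/Wwtr1 library in each of the 4 subclusters.

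Lgals3bp was at 0.71, 0.93, 0.73 and 1.02, but in subcluster 4 its share was 90% in both libraries. Ly6e was at 0.71, 0.88, 0.92 and 0.29, and the percent of cells with a count was 95.7 or more in both libraries throughout. For these abundant members the percent of cells has little room to differ, and the fold change carries the difference. Ifi27l2a was at 0.70, 0.74, 1.04 and 1.75, and 95.7% and 96.7% of cells of subcluster 3 had a count, which is close to equal.

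The members with the highest values in subcluster 5 were Ifi27l2a, Rtp4, Ifit3, Ifit1 and Psmb9. Rtp4 was counted there in 57.1% of cells of the Yap/Wwtr1 library and 4.3% of control cells (log2 fold change 1.56), and Psmb9 in 66.7% against 4.3% (1.22). A share of 4.3% is the smallest above 0 in the control library of subcluster 5, so both control values lie at its floor. Ifit3 was at 33.3% against 13% (1.43) and Ifit1 at 38.1% against 13% (1.39). The other immunoproteasome subunit, Psmb8, was at 85.7% against 60.9% (0.58). In subcluster 4, Ifit1 was the highest member (80% against 20%, 1.21), followed by Ifi44 (60% against 22.5%, 1.20), Gbp3 (50% against 27.5%, 1.05), Ifi27l2a and Trim30a. These members were also above 0 in the other subclusters. Psmb9 was at 0.43, 0.62 and 0.20 and Psmb8 at 0.30, 0.60 and 0.07 in subclusters 0, 3 and 4. Rtp4 was at 0.68, 0.55 and 0.53 in these, with 71.9%, 69.6% and 70% of cells against 51.7%, 46.7% and 42.5%. The Rtp4 share was thus higher in the Yap/Wwtr1 library in each subcluster. Ifit1 was at 0.67 and 0.38 and Ifi44 at 0.65 and 0.54 in subclusters 0 and 3, and Ifi44 was at 0.48 in subcluster 5. Ifit3 was at 0.47, 0.04 and 0.72 in subclusters 0, 3 and 4. In subclusters 0 and 3 the 5 highest members were the same: Irf7, Trim30a, Lgals3bp, Ly6e and Ifi27l2a.

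The limits were passed in no subcluster by 5 members, Ifih1, Oasl1, Oas3, Mx1 and Mx2. Mx1 and Mx2, dynamin-like GTPases that trap viral particles, were hardly detected in fibroblasts: no share of Mx1 was over 3.3% and none of Mx2 over 20%. Oasl1 was at -0.09, 0.08, 0.00 and 0.07 in subclusters 0, 3, 4 and 5, and the RNA sensor Ifih1 at 0.16, 0.12, 0.248 and -0.08. Oas3 was at -0.20 in subcluster 4, where 0% of cells of the Yap/Wwtr1 library and 12.5% of control cells had a count. Of the 5 OAS genes, only Oasl2 was above 0 in all 4 subclusters (0.25, 0.61, 0.85 and 0.39). Oas1a, which belongs to a cluster of close copies that counting may mix, was at 0.12, -0.10, -0.05 and 0.32.

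Members below 0 were few and small in size. The lowest value of all was that of Eif2ak2, the kinase PKR that halts translation on double-stranded RNA, at -0.24 in subcluster 3 with shares of 73.9% and 86.7%. It was at 0.05, 0.58 and -0.13 in subclusters 0, 4 and 5. Igtp was at -0.11, -0.05, -0.02 and 0.60. Oas2 (-0.18), Usp18 (-0.17), Ifi35 (-0.12) and Oas1a completed the 5 lowest of subcluster 3. In subcluster 0 the lowest, after Igtp, were Oasl1, Cmpk2 (-0.07), Mx1 (-0.03) and Dhx58 (-0.02). In subcluster 4, Oas3, Oas1a and Igtp were below 0, and Oasl1 and Irgm1 were at 0.00. In subcluster 5 the lowest were Ifi35 (-0.14), Eif2ak2, Ifih1 and Gbp2 (-0.07), then Mx1, which was listed at 0 in both libraries.

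Several members passed the limits in 2 or 3 subclusters. Usp18 was counted in 60% of cells of the Yap/Wwtr1 library and 12.5% of control cells of subcluster 4 (0.87), and in 33.3% against 4.3% in subcluster 5 (0.68). That 4.3% is the smallest share above 0 in the control library of subcluster 5. In subcluster 3 it was the other way, as given above. Rsad2, or viperin, which makes a chain-terminating nucleotide, was at 26.1% against 0% in subcluster 3 and 30% against 7.5% in subcluster 4 (0.48). Gbp2 was at 0.12, 0.45 and 0.47 in subclusters 0, 3 and 4. Dtx3l and Parp9, partners in an ADP-ribosylating complex, were at 0.66 and 0.62 in subcluster 5, and Dtx3l was at 0.16, 0.35 and 0.23 in the other three. The third gene of that group, Parp14, stayed between 0.01 and 0.27. Stat2 was at 0.21, -0.06, 0.46 and 0.37, and Irf9 at 0.35, 0.05, 0.30 and 0.28.

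Ifit2, Ifit3b and Herc6 are further members of the IFIT and ISG15 groups. Ifit2 was at 0.05, 0.04, 0.21 and 0.29 in subclusters 0, 3, 4 and 5, Ifit3b at 0.44, 0.06, 0.19 and 0.39, and Herc6 at 0.29, 0.16, 0.36 and 0.29. Each was above 0 throughout, although in subcluster 4 the share of Herc6 was 20% in both libraries. Zbp1 was at 0.07, 0.21, 0.93 and 0.32, and in subcluster 0 its share was slightly lower in the Yap/Wwtr1 library (59.4% against 64.8%). Among the GTPases, Iigp1 was at 0.62, 0.35, 0.93 and 1.01, Gbp3 at 0.62, 0.44, 1.05 and 0.28, and Gbp7 at 0.39, 0.16, 0.59 and 0.22. Xaf1, which promotes apoptosis, was at 0.32, 0.09, 0.37 and 0.43, and Sp100 at 0.31, 0.0072, 0.63 and 0.51. All of these were thus above 0 in each subcluster, with the smallest values in subcluster 3 for Ifit2, Ifit3b, Herc6, Iigp1, Gbp7, Xaf1 and Sp100.

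By role, the 9 genes grouped as other interferon-stimulated genes (Ifi27l2a, Ifi35, Ifi44, Xaf1, Rtp4, Trim30a, Lgals3bp, Ly6e, Sp100) had medians of 0.68, 0.55, 0.73 and 0.49 in subclusters 0, 3, 4 and 5. The 4 IFIT genes had medians of 0.46, 0.05, 0.46 and 0.89, and the 6 GTPases of 0.29, 0.25, 0.53 and 0.30. The 5 antiviral effectors had the lowest medians of the role groups in subclusters 0, 3 and 5 (0.04, 0.00 and 0.07) but stood at 0.48 in subcluster 4, where the 5 OAS genes were lowest (0.00). The groups hold 2 to 9 genes each, so these medians rest on few values. The members with and without an ISRE core in the promoter window were listed in like number in fibroblasts: 7 of the 16 with a match and 7 of the 15 without were listed higher in cluster 5, and their subcluster medians were 0.20, 0.09, 0.48 and 0.32 with a match and 0.30, 0.20, 0.36 and 0.42 without.

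Markers of other cells also differed within the subclusters. Of the 8 macrophage markers, 2 were higher and 3 lower past the limits in subcluster 0, 5 higher and 0 lower in subcluster 3, 0 higher and 3 lower in subcluster 4 and 3 higher and 0 lower in subcluster 5. Single macrophage markers were counted in 3.1% to 50% of cells of the Yap/Wwtr1 library and 11.7% to 89% of control cells in subcluster 0, 13% to 56.5% and 6.7% to 80% in subcluster 3, 0% to 80% and 10% to 90% in subcluster 4, and 0% to 66.7% and 0% to 82.6% in subcluster 5. Fold changes and shares of these markers differed in direction: the share was lower in the Yap/Wwtr1 library for 8, 5, 6 and 5 of the 8 in subclusters 0, 3, 4 and 5. In subcluster 3, the complement genes C1qa and C1qb and Lyz2 had log2 fold changes of 1.45, 1.38 and 1.75, yet they were counted in 56.5%, 39.1% and 47.8% of cells against 70%, 80% and 80% of control cells. In subclusters 0 and 4 the Lyz2 fold change was negative, at -1.83 and -1.49. Of the 5 neutrophil markers in these tables, 3 were lower in each of subclusters 0, 3 and 4 and none in subcluster 5. There S100a8 and S100a9 had log2 fold changes of 0.13 and 0.10, although their shares were lower, at 71.4% against 78.3% and 38.1% against 91.3% of cells. Of the 5 T cell markers, 0, 1, 2 and 1 were higher and none lower past the limits in subclusters 0, 3, 4 and 5, with medians of 0.08, 0.38, 0.27 and 0.36. Cd3d was at 39.1% against 10% of cells in subcluster 3 and 42.9% against 13% in subcluster 5, and Cd8a at 30% against 2.5% in subcluster 4. Of the 2 plasmacytoid dendritic cell markers, Ccr9 was at 30% against 0% and Siglech at 10% against 2.5% in subcluster 4. Ccr9 is not particular to these cells, since it was also counted in 46.5% against 6.0% of the T cells of cluster 4 and 62.5% against 36.3% of those of cluster 8. The part of these cells or of their free RNA in the members' values was not tested.

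Outside the fibroblasts, macrophages and monocytes held the most member listings. In their 5 clusters (0, 3, 11, 12 and 13) members were listed 56 times higher and 4 times lower. Cluster 0 listed 20 members higher and 0 lower, against 61.6% of its 923 listed genes that were higher, cluster 3 listed 10 and 0 (60.4%), and cluster 12 listed 12 and 0 (46.9%). Cluster 11 listed 6 higher and 1 lower (46.5%), and cluster 13 listed 8 and 3 (59.1%). In cluster 0 these 20 were 46.5% of the members, where 3.38% of the 16846 genes were listed higher. In clusters 3, 12, 11 and 13 the higher members were 23.3%, 27.9%, 14% and 18.6% of the 43. The genes listed higher there were 1.29%, 1.81%, 2.01% and 3.13%. The lower members were 2.33% in cluster 11 and 6.98% in cluster 13, beside 2.32% and 2.17% of genes listed lower.

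In cluster 0, Lgals3bp was counted in 88.4% of cells of the Yap/Wwtr1 library and 53.2% of control cells (log2 fold change 1.04), and Irf7 in 57.3% and 25.8% (0.74). Ifi27l2a was at 97.2% and 81.9% (1.12) there and at 97.4% and 87.6% (1.13) in cluster 3. Irf7 was also higher in cluster 3, at 70.3% and 39.4% (0.60). Oasl2 was listed higher in each of the 5 macrophage clusters, at 0.57, 0.44, 0.30, 0.56 and 0.65 in clusters 0, 3, 11, 12 and 13. It was counted in 47% against 15.8% of cells in cluster 0 and in 64.8% against 33.7% in cluster 13. Rtp4 was at 51.8% against 19.4% in cluster 0 (0.60), 65.1% against 37.9% in cluster 3 (0.46) and 76.1% against 42.1% in cluster 13 (0.62). Ly6e, counted in at least 93.5% of either library's cells, was at 0.63 in cluster 0 and 0.30 in cluster 3.

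Cluster 0 also listed members that cluster 5 did not. Stat2 was at 38% against 16.5% of cells there (0.40), Sp100, a nuclear body protein, at 64.2% against 37.8% (0.57), and Irgm1, a regulatory immunity-related GTPase, at 36.8% against 15% (0.35). In turn, Ifit1, Ifit3, Ifi44, Gbp3, Iigp1, Psmb8 and Psmb9 were listed in cluster 5 and not in cluster 0. Whether the clusters differ in these genes was not tested, since an unlisted gene has no value. In cluster 12, Zbp1 (54.4% against 31.2%, 0.61) and Dtx3l (51.9% against 24%, 0.68) had the highest values after Ifi27l2a (0.79). The 4 lower listings among macrophages were Gbp7 in cluster 11 (-0.28) and Parp14 (-0.34), Psmb8 (-0.27) and Mx1 (-0.26) in cluster 13.

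Neutrophils, in clusters 1 and 18, held 16 higher and 3 lower listings. Cluster 1 listed 8 members higher and 0 lower, where 58.7% of listed genes were higher. The 8 are 18.6% of the members, beside 1.1% of all 16846 genes listed higher there. Isg15 was counted there in 30.1% of cells of the Yap/Wwtr1 library and 13.8% of control cells, with a log2 fold change of 1.07, and Rsad2 in 27.4% and 13.5% (0.95). No other cluster lists Rsad2. Rtp4 was at 42.9% and 24.4% (0.79), and Ifi27l2a at 99.6% and 96.8% (0.69). Cluster 18 listed 8 members higher and 3 lower (38.1% of listed genes higher). It had the highest value of Ifi27l2a, at 76.5% against 9.1% of cells (1.98), and listed Oas1a, Oas2 and Rtp4 in 29.4%, 35.3% and 35.3% of cells of the Yap/Wwtr1 library but at 0 in the control library. Stat2, Dtx3l and Psmb9 were its lower members, which is 6.98% of the members beside 5.24% of all genes listed lower there. Its 8 higher members are 18.6%, beside 3.22% of all genes listed higher.

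**Figure D4:**
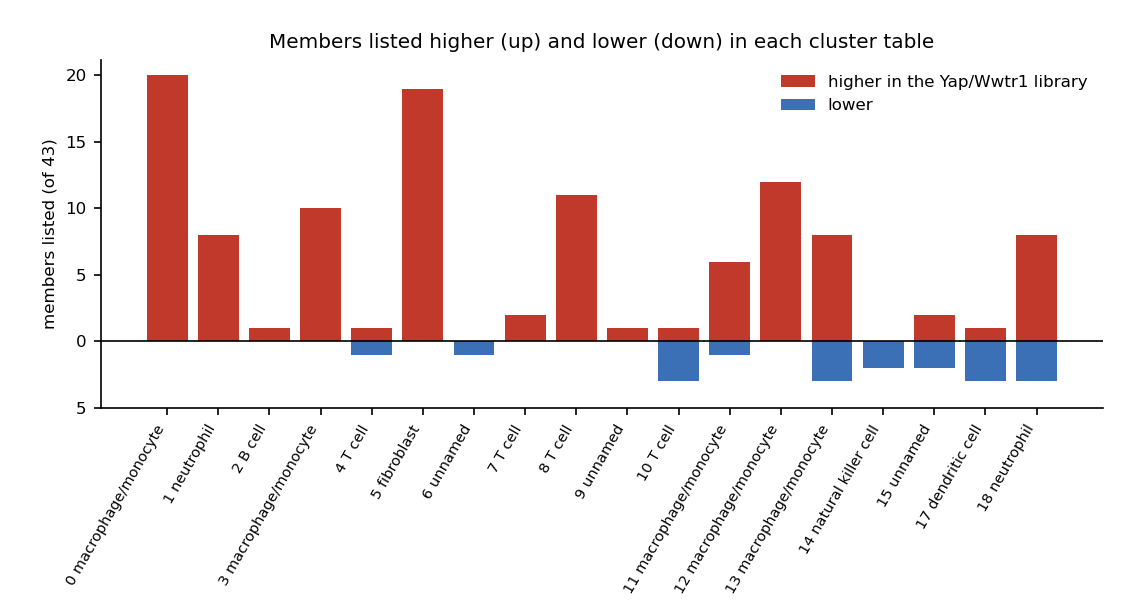
Number of the 43 members (vertical axis) listed higher (red, upward) and lower (blue, downward) in the Yap/Wwtr1 library for each of the 18 clusters (horizontal axis, with the study's cell type). Clusters 0 and 5 reach 20 and 19 members with none lower, whereas clusters 6 and 14 hold lower members only, 1 and 2.

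The lymphocyte clusters were uneven. Of the 4 T cell clusters, cluster 8 listed 11 members higher and 0 lower, where 60.8% of listed genes were higher, but cluster 4 listed 1 and 1 (68.2%), cluster 7 listed 2 and 0 (29.2%) and cluster 10 listed 1 and 3 (53.7%). The higher members were 25.6%, 2.33%, 4.65% and 2.33% of the 43 in clusters 8, 4, 7 and 10. The genes listed higher there were 1.96%, 1.82%, 0.73% and 5.39% of all 16846. The lower member of cluster 4 was 2.33%, beside 0.849% of genes listed lower. In cluster 8, Ifi27l2a (87.5% against 81.3%, 0.73), Ifit1 (25% against 7.0%, 0.51), Irf7 (29.2% against 11.7%, 0.41) and Irf9 (43.8% against 21.6%, 0.41) were the highest. In cluster 10, Gbp7 (22.6% against 36.4%, -0.65), Irf9 (11.3% against 36.4%, -0.49) and Igtp (18.3% against 36.4%, -0.48) were lower, and Ly6e was the higher member (0.29). The 3 lower members are 6.98% of the 43, beside 4.65% of the 16846 genes listed lower there. The B cells of cluster 2 listed 1 member higher and 0 lower (44% of listed genes higher), which was Ifi27l2a at 0.86 with 95.4% and 93.7% of cells. This member is 2.33% of the 43, beside 0.416% of all genes listed higher there. The natural killer cells of cluster 14 listed 0 higher and 2 lower (50.9%), Sp100 (-0.38) and Trim30a (-0.27), which is 4.65% of the members beside 2.83% of all genes listed lower.

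The dendritic cells of cluster 17 listed 1 member higher and 3 lower, where 41.4% of its 1914 listed genes were higher. The 3 are 6.98% of the members, close to the 6.66% of all 16846 genes listed lower there. The higher member is 2.33%, beside 4.7% of all genes listed higher. Ifi27l2a was the higher one, at 63.6% against 40% of cells (0.54). Ly6e was at -0.48 (90.9% against 100%) and Zbp1 at -0.30 (27.3% against 60%), and Dhx58 was listed at 0 in the Yap/Wwtr1 library and in 45% of control cells. Clusters 6, 9 and 15 carry no cell type here. Cluster 6 listed 0 higher and 1 lower (36.7%), Psmb9 at -0.42, or 2.33% of the members beside 2.64% of all genes listed lower. Cluster 9 listed 1 and 0 (36.3%), Sp100 at 0.31, and cluster 15 listed 2 and 2 (47.3%), with Ifi27l2a (0.88) and Dtx3l (0.34) higher and Ifi44 (-0.37) and Parp14 (-0.37) lower. These shares were near those of all genes, with 2.33% of members beside 2.81% of genes listed higher in cluster 9, and in cluster 15 4.65% of members in each direction beside 3.86% of genes higher and 4.3% lower.

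Counted by gene, Ifi27l2a was the most widely listed member, higher in 14 clusters and lower in none, with log2 fold changes from 0.41 in cluster 4 to 1.98 in cluster 18. Sp100 was listed higher in 8 clusters and lower in 1, Trim30a in 7 and 1, and Oasl2 and Rtp4 in 7 and 0 each. Irf7 was listed higher in 6 clusters (0, 1, 3, 5, 8 and 12), from 0.31 to 0.80, and lower in none. Zbp1 was higher in 6 and lower in 1, Dtx3l in 5 and 1, Ly6e in 5 and 2, and Lgals3bp in 5 and 0. By contrast, Ifit3, Gbp3 and Iigp1 were listed in cluster 5 alone among the 18 clusters, and Ifit1 in clusters 5 and 8. Levels in clusters that do not list them are not known here, so no statement is made on whether these genes are particular to fibroblasts.

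Signalling genes around the members were on both sides of 0. Of 38 such genes, 29 are in the subcluster tables, and their medians were -0.0089, 0.03, 0.04 and -0.04 in subclusters 0, 3, 4 and 5. Past the limits, 4, 4, 9 and 5 of these 29 were higher and 3, 3, 4 and 4 lower. Among all genes in enough cells, 12.5%, 13.8%, 25.2% and 20.3% were higher and 9.87%, 15.1%, 19.5% and 23.5% lower. The 29 were not limited to genes in enough cells. Over the 18 clusters the signalling genes were listed 32 times higher and 33 times lower, where 47.7% of the listings of all genes were higher. None of the 7 interferon genes looked up (Ifna1, Ifna2, Ifna4, Ifnb1, Ifne, Ifnk and Ifng) is in any of the 22 tables. A cluster table leaves out genes under its limits, so the level of these ligands in the clusters is not known here.

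Ddx58, the RNA sensor RIG-I, was at 0.28, 0.07, 0.70 and 0.37 in subclusters 0, 3, 4 and 5, higher in cluster 8 and lower in clusters 10 and 14. Irf1, a transcription factor that interferon gamma induces, was at -0.37, -0.17, 0.83 and 0.32, higher in clusters 8 and 12 and lower in clusters 6 and 10.

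The receptor chains were on both sides of 0. Ifnar1 was at -0.11, 0.22, 0.33 and -0.29 and Ifnar2 at 0.30, 0.51, 0.33 and -0.24 in subclusters 0, 3, 4 and 5. In the clusters Ifnar1 was listed lower 4 times (14, 15, 17 and 18) and Ifnar2 2 times (10 and 17), and neither was listed higher. Ifngr1 was at -0.25, -0.01, -0.02 and 0.03 and Ifngr2 at -0.12, 0.41, 0.04 and -0.56. In the clusters Ifngr1 was listed higher in 15 and 18 and lower in 10, and Ifngr2 lower in 18 alone. Of the kinases, Jak1 was at -0.0090, 0.25, 0.01 and 0.39, Jak2 at 0.05, -0.10, 0.79 and -0.08, and Tyk2 at 0.20, 0.14, -0.03 and -0.20. Jak1 was listed lower in clusters 11 and 17, Jak2 lower in clusters 6 and 15, and Tyk2 higher in cluster 14. Other signalling genes listed in at least 3 clusters were Stat3 (4 higher, 0 lower), Irf2 (1 and 3), Irf3 (2 and 1), Irf8 (1 and 2), Sting1 (2 and 1), Adar (2 and 1), Socs1 (1 and 2) and Socs3 (1 and 2). Cxcl10, a chemokine that interferons induce, was listed in no cluster.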

How the data were processed

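The study's code and methods describe alignment with Cell Ranger 6.1.1 to GRCm39, combination of both libraries without depth normalization, SCTransform in Seurat, clustering, and a second pass over fibroblasts. No doublet caller is named, only upper limits, so doublets may remain. Within each cluster the authors compared the cells of both libraries. The deposited log2 fold change, the deposited fraction of cells with a count in each library and the deposited p-value are the authors' comparisons over cells. They were used here because they are the only measurements of the members at hand. The fraction is printed as a percent, and the adjusted p-value (Bonferroni, over 16846 genes in the clusters and 15059 in the subclusters) served only as a filter in an alternative. Which library is which followed from the deposited code. Checked on the tables, every gene of a cluster table had a log2 fold change of 0.25 or more in size and a count in 25% or more of cells in a library. Cluster and subcluster values come from separate normalizations. Cluster 16 and subclusters 1 and 2 were not analysed here.

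Members were counted and medians taken in Python 3.11.15 (pandas 2.3.3, numpy 2.4.6), tested on simulated data, and drawn with matplotlib 3.10.9. No test was made, because each group held 1 library. Depth and cell numbers are not stated in the tables, so background from free RNA is described only through markers of other cells. The members, roles, pathway and marker lists were chosen with earlier results of these data known. All members are accounted for. Values are given for members that cluster 5 lists, those at least 5 clusters list, those listed in opposite directions, and the 5 highest and 5 lowest in each subcluster. Pathway genes are named where cluster 5 or at least 3 clusters list them, and the signalling core throughout. One gene of the signalling list is not reported here. Alternatives were size limits of 0.5 and 1, no minimum share, the authors' adjusted p-value below 0.05, centring on the median, the log2 ratio of shares (0.01 added to each), means, and leaving out members with near-identical copies or clusters 6, 9 and 10.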

Additional observations from a re-analysis of the deposited data

Results flagged for a closer look

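The members below were listed higher in some clusters and lower in others, 12 of the 43 in all. Each is given by its lowest and highest log2 fold change in the authors' deposited cluster tables. The difference between clusters was not tested, since each cluster holds 1 library per group. Among regulators and sensors, Irf9 was at -0.49 in cluster 10 and 0.41 in cluster 8, both T cell clusters. Stat2 was at -0.27 in the neutrophils of cluster 18 and 0.40 in the macrophages of cluster 0, and Zbp1 at -0.30 in the dendritic cells of cluster 17 and 0.61 in the macrophages of cluster 12. Of the ADP-ribosylation genes, Parp14 was at -0.37 in cluster 15 and 0.40 in cluster 8, and Dtx3l at -0.26 in cluster 18 and 0.68 in cluster 12. Ifi44 was at -0.37 in cluster 15 and 0.55 in the fibroblasts of cluster 5.

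Both Trim30a and Sp100 were lowest in the natural killer cells of cluster 14 (-0.27 and -0.38) and highest in cluster 0 (0.53 and 0.57). Ly6e was at -0.48 in cluster 17 and 0.76 in cluster 18. Gbp7 was at -0.65 in cluster 10 and 0.46 in cluster 5. The immunoproteasome genes were at -0.27 in cluster 13 and 0.53 in cluster 11 for Psmb8 and at -0.42 in cluster 6 and 0.27 in cluster 5 for Psmb9. Clusters 6, 10, 14 and 17 listed more members lower than higher, 2.33%, 6.98%, 4.65% and 6.98% of the 43 members, beside 2.64%, 4.65%, 2.83% and 6.66% of all 16846 genes listed lower there.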

How the results depend on the processing

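With 1 library per group, none of these values has a replicate error. The study states an average depth over all cells, but not the depth of each library or cluster. No paired analysis was possible because both genotypes had only 1 library. The 111 higher listings of members over the 18 clusters became 46 with a size limit of 0.5, 7 with a limit of 1, 46 with the adjusted p-value of the authors below 0.05, and 71 after centring on the median of the genes each cluster lists. The 19 lower listings became 2, 0, 0 and 10. In cluster 5 the 19 members listed higher became 10 with a limit of 0.5 and 1 with a limit of 1. Summed over the 4 subclusters, the 96 higher values became 56 with a limit of 0.5 and 1 with the adjusted p-value of the authors below 0.05. With the log2 ratio of shares in place of the fold change, 8 subcluster values were lower past the limits where 0 had been, and the median of the members in subcluster 5 was 0.98 in place of 0.37. That ratio kept the direction of 221 of 232 member values of at least 0.25 in size. It turned that of Ifi27l2a in cluster 4 (-0.0438), cluster 15 (-0.0701) and subcluster 3 (-0.0148), Ly6e in cluster 10 (-0.0072) and subcluster 3 (-0.0628) and Trim30a in cluster 13 (-0.0134), all of them with nearly equal shares in both libraries, and was 0 for 5 values in subcluster 4. The cause of these shifts was not tested. Leaving out clusters 6, 9 and 10, which the study describes as mostly cells of the Yap/Wwtr1 library, or leaving out Ifit3, Ifit3b and Oas1a, which have near-identical copies, moved either count by less than 1.5 times.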
